A study of Mus musculus with 21 samples.

Results

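The genes described here are markers and regulators of bone and cartilage formation that are also followed in calcifying blood vessels: Spp1, Runx2, Alpl, Bmp2, Sox9, Mgp, Enpp1 and Msx2. They were chosen by gene symbol, and each is read from the probe sets that the platform annotation pairs with that symbol alone. Of the 8 genes, 5 have a probe set, namely Sox9 (3 probe sets), Msx2 (2), Mgp, Alpl and Bmp2, against 18193 genes with a probe set in the whole series. Spp1, Runx2 and Enpp1 were not analysed here. Of the 8 probe sets, 6 exceeded the array's median signal on 3 or more of the 15 arrays taken at 24 h, so 4 of the 12446 genes tested were members (Sox9, Mgp, Alpl and Msx2), and Bmp2 is described without a call.

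Aortas of male C57BL/6J mice aged 10 to 12 weeks were the source of cultured smooth muscle cells, the contractile cells of the vessel wall, which were kept in DMEM/F12 medium with 10% FCS. At 24 h there were 3 arrays of cells given tumour necrosis factor (TNF) at 1 ng/ml plus an antibody to the lymphotoxin beta receptor (anti-LTBR) at 10 µg/ml, 4 arrays with TNF alone, 4 with anti-LTBR alone and 4 with PBS alone as the control. The earlier times of 2 h and 6 h have a lone array for each of TNF, anti-LTBR and PBS. All agonists were given in PBS to cells fed 24 h earlier, and the labels name no transgene and do not say how many animals or cultures were used.

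Vascular calcification is the deposition of calcium phosphate in the vessel wall, and smooth muscle cells in such walls can take on features of osteoblasts and chondrocytes. Bone morphogenetic proteins such as BMP2 act through Smad proteins and the transcription factors MSX2, RUNX2 and SOX9, of which SOX9 drives cartilage matrix genes and RUNX2 drives bone formation. Tissue-nonspecific alkaline phosphatase, encoded by Alpl, removes the mineralization inhibitor pyrophosphate that ENPP1 makes, while matrix Gla protein (MGP) and osteopontin, encoded by Spp1, restrain mineral growth. TNF and LTBR both signal through NF-kB, and the series title concerns their combined signal in aortic smooth muscle cells, which it describes as turning into organizers of lymphoid tissue.

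Each array held 45101 probe sets, with a trimmed mean signal of 500.0 and an array median of 106.8 to 139.0. Of 9 smooth muscle markers, 7 were above the array median on all 24 h arrays. Of 4 osteoblast markers with a probe set, 0 were above it on all 24 h arrays and 1 was above it on none, and their summed signal was 140 to 246 with TNF plus anti-LTBR, 166 to 413 with TNF, 194 to 462 with anti-LTBR and 277 to 498 in PBS. The highest sums of the last 3 groups were those of the arrays numbered 0, and on the numbers 1 to 3 the sums were 166 to 202 with TNF, 194 to 263 with anti-LTBR and 277 to 286 in PBS. Of 8 chondrocyte markers, 5 were above the array median on all 24 h arrays and 1 was above it on none. Arrays that share a replicate number in the labels resembled each other, and the combination has no array with the number 0. The 24 h arrays with that number stood apart with a summed signal of 12 endothelial markers of 21274 to 22472, against 1667 to 4069 on the arrays numbered 1 to 3. Those numbers differed from each other too. The summed signal of 13 macrophage markers was 1903 to 2273, 1629 to 2319 and 4189 to 5720 on the numbers 1, 2 and 3. That of the chondrocyte markers was 31506 to 46554, 14431 to 22040 and 30017 to 37769 there, and 13883 to 17141 on the number 0. Values with the number as a replicate block, and on the numbers 1 to 3 alone, are therefore given beside the results. Of the osteoblast markers 2 were tested, and 0 had an adjusted p under 0.05 in limma against PBS, with or without that block. Their median log2 changes with the block were -0.04 with the combination, -0.08 with TNF and 0.32 with anti-LTBR.

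A call is an adjusted p under 0.05 in limma, Benjamini-Hochberg over 12446 genes. Of the 4 members tested, 0 were called without the replicate block in any of the 7 comparisons at 24 h. On the probe sets used for gene tests, 0 had an unadjusted limma p under 0.05 without the block. The share of all genes called there was 2.45 percent for TNF plus anti-LTBR against PBS, 0.337 percent for TNF against PBS and 0.129 percent for anti-LTBR against PBS. It was 0.0482 percent for the combination against TNF, 0.362 percent for the combination against anti-LTBR, 0.0161 percent for TNF against anti-LTBR and 0 percent for the interaction. With the replicate block, 2 of the 4 members, Sox9 and Mgp, fell with TNF plus anti-LTBR against PBS, where 19.5 percent of all genes were called. The block gave 0 of 4 members in the other comparisons, in which it called 5.93 percent of all genes for TNF against PBS, 4.78 percent for anti-LTBR against PBS and 6.78 percent for the combination against TNF. In those comparisons the unadjusted limma p with the block was under 0.05 for Sox9 in anti-LTBR against PBS and in the combination against TNF, and for Mgp in the combination against each agonist. The remaining shares were 5.58 percent for the combination against anti-LTBR, 0.723 percent for TNF against anti-LTBR and 0.0161 percent for the interaction. The median log2 change of the 4 members in the combination was -0.13 with the block, beside 0.00044 over all genes, and in the comparisons with PBS the medians were -0.14 with TNF and -0.13 with anti-LTBR, beside -0.02 and -0.01 over all genes.

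Sox9, the transcription factor gene of the chondrocyte lineage, had the largest change of the 4 members tested in the combination. On the brightest of its 3 probe sets, the signals at 24 h were 871, 460.9 and 896.4 with TNF plus anti-LTBR on the arrays numbered 1 to 3. With TNF they were 719.6, 1284.2, 842.1 and 827.3 and with anti-LTBR 675.6, 1199.5, 599.2 and 790.8, on the arrays numbered 0 to 3. In PBS they were 823.2, 1800.9, 745.4 and 1072.5. The groups overlapped, and array 1 was the highest with each agonist alone and in PBS, but within each number the combination array was below its PBS array in 3 of 3 pairs. The means were 743 ± 244 with TNF plus anti-LTBR (SD, n = 3) and 1110.5 ± 481 in PBS (SD, n = 4). Without the block the log2 change was -0.55 ± 0.33 (SE, adjusted p = 0.605), and with the block it was -0.64 ± 0.14 (adjusted p = 0.00508), which is 1.56-fold lower. On the numbers 1 to 3 alone the blocked change was -0.66 ± 0.16 (adjusted p = 0.0132). With the block Sox9 was called in 15 of 15 fits that left out 1 array each. The limma adjusted p there was up to 0.0431, and the changes were -0.87 to -0.52.

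The second Sox9 probe set ran in parallel with the first over the 15 arrays (Pearson r = 0.95 of the log2 signals). The number means were left in, so differences between numbers are part of this value, which describes probe sets on the same arrays. Its signals were 839.4, 354.8 and 730.4 with TNF plus anti-LTBR, 681.1, 1196.4, 647.2 and 838.1 with TNF, 599.7, 1171, 650.2 and 884.8 with anti-LTBR, and 782.4, 1823.1, 804.4 and 1215.4 in PBS. Within each number every treated array was below its PBS array, in 3 of 3 pairs for the combination and 4 of 4 for each agonist alone, although the groups overlapped. Tested over all 25110 passing probe sets it was not called without the block (combination -0.84 ± 0.35, adjusted p = 0.398). With the block it fell by 0.97 on the log2 scale with the combination, or 1.96-fold (SE 0.11, adjusted p = 3.28e-05), by 0.41 with TNF (adjusted p = 0.0298) and by 0.44 with anti-LTBR (adjusted p = 0.024). The combination was also lower than TNF, by 0.56 (adjusted p = 0.01), and lower than anti-LTBR, by 0.53 (adjusted p = 0.0138). In the same fit over 25110 probe sets the first one gave changes of the same sign in these comparisons that were not called, at -0.22 for TNF against PBS (adjusted p = 0.437), -0.40 for anti-LTBR against PBS (adjusted p = 0.117), -0.42 for the combination against TNF (adjusted p = 0.111) and -0.24 for the combination against anti-LTBR (adjusted p = 0.425).

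Of these calls on the second probe set, the one for the combination against PBS held in 15 of 15 fits that left out an array (adjusted p up to 0.000388), while the call for TNF was lost without any of 5 arrays (PBS 1, 2 or 3, TNF 1 or 3, adjusted p up to 0.117). The call for anti-LTBR was lost without any of 6 (PBS 1, 2 or 3, anti-LTBR 0, 1 or 3, adjusted p up to 0.1002), that for the combination against TNF without combination array 2 (adjusted p = 0.0718), and that for the combination against anti-LTBR without anti-LTBR 2 or combination 1 or 2 (adjusted p up to 0.0956). Scaling to equal medians with the block ended the calls for TNF (adjusted p = 0.0611) and anti-LTBR (adjusted p = 0.0651) against PBS, and the numbers 1 to 3 ended that for anti-LTBR (adjusted p = 0.0764). No interaction was called on either probe set: with the block it was -0.02 (95% interval -0.43 to 0.38) on the first and -0.12 (-0.43 to 0.20) on the second. The third Sox9 probe set was at 13.1 to 110 at 24 h, below the array median on 15 of 15 arrays, and was not tested.

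Chondrocyte markers were measured beside Sox9. Their summed signal on the arrays numbered 1, 2 and 3 was 31506, 14431 and 30017 with TNF plus anti-LTBR, against 46554, 22040 and 37769 in PBS. Of the 7 chondrocyte markers tested, 0 were called without the block. With it 5 were lower in the combination, 4 with TNF and 2 with anti-LTBR, beside 19.5, 5.93 and 4.78 percent of all genes called. The part of these markers in the Sox9 change was not tested, and in RNA from whole cultures fewer cells of a type cannot be told apart from less RNA per cell. Of 9 smooth muscle markers, 5 also fell with the block in the combination, 5 with TNF and 2 with anti-LTBR. Without the block 1 fell in the combination and 0 with either agonist alone. Their summed signal on the arrays numbered 1, 2 and 3 was 33076, 42291 and 44870 with TNF plus anti-LTBR, against 42122, 54022 and 50246 in PBS. Of 5 adventitial fibroblast markers tested, 2 were higher with the block in the combination and 0 without it, and the summed signal on the arrays numbered 1, 2 and 3 was 14492, 8274 and 9584 with TNF plus anti-LTBR, against 11017, 7399 and 8187 in PBS. The part of the smooth muscle and fibroblast markers was not tested either.

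**Figure D1:**
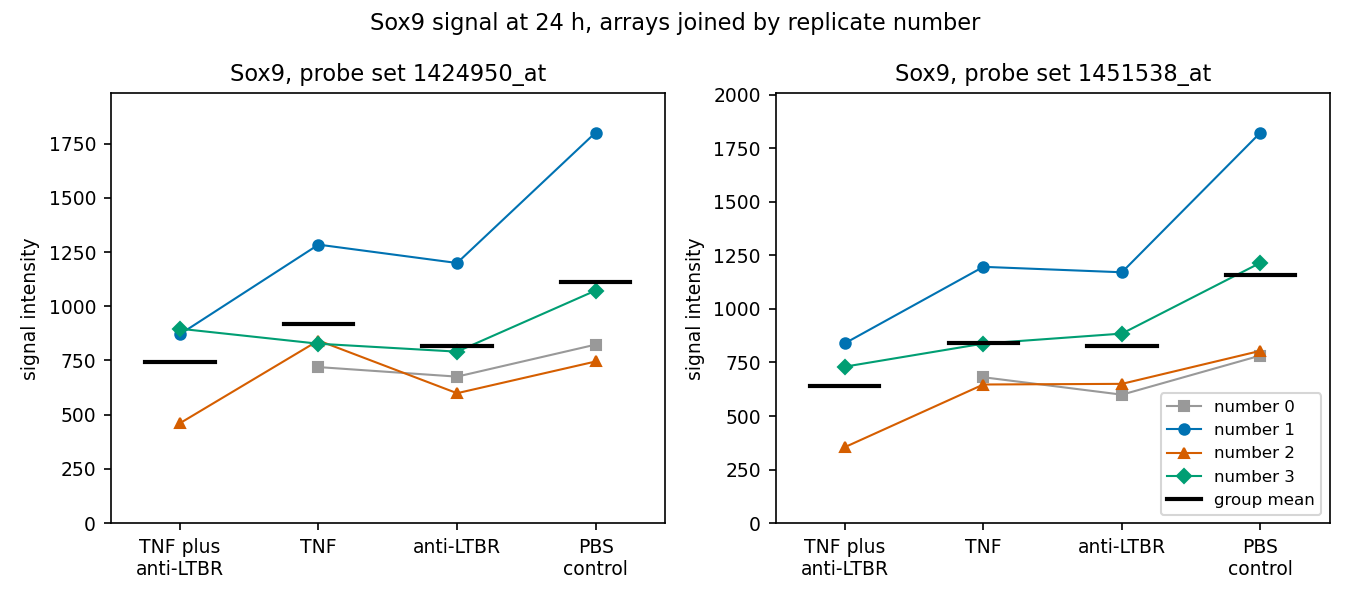
Sox9 signal intensity on each of the 15 arrays at 24 h, for the 2 probe sets above the array median, with arrays of the same replicate number joined by lines and group means as black bars. The combination has no array numbered 0. On the second probe set every treated array lies below the PBS array of its number, and the 2 arrays at 1800.9 and 1823.1 are both PBS array 1.

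At 2 h and 6 h, where 1 array a group gives no replicate check and no test, Sox9 was the member with the largest differences. All arrays of these times carry the number 0. Their summed signal of 12 endothelial markers was 17963 to 20796, against 1667 to 4069 on the 24 h arrays numbered 1 to 3. The part of this difference in the early values was not tested. At 2 h its signal on the brightest probe set was 460.6 with TNF, 714.1 with anti-LTBR and 801.4 in PBS, and on the second 362, 728.9 and 785.4 in the same groups. TNF was thus 1.72-fold and 2.14-fold lower than PBS on the 2 probe sets, and anti-LTBR 1.12-fold and 1.08-fold lower. At 6 h the signals were 613 with TNF, 615.8 with anti-LTBR and 943.5 in PBS on the first probe set and 572.6, 571.2 and 828.1 on the second, so that both agonists stood at nearly the same level. On the log2 scale the differences from PBS at 6 h were -0.61 and -0.52 for TNF and -0.61 and -0.53 for anti-LTBR. Among the probe sets used for gene tests, 0 of the 4 members were past 2-fold in any of these comparisons, where 2.51 percent (TNF) and 1.5 percent (anti-LTBR) of all genes were past it at 2 h and 3.09 percent (TNF) and 1.73 percent (anti-LTBR) at 6 h. The other members tested, Mgp, Alpl and Msx2, differed from PBS by -0.16 to 0.21 on the log2 scale at these times.

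**Figure D2:**
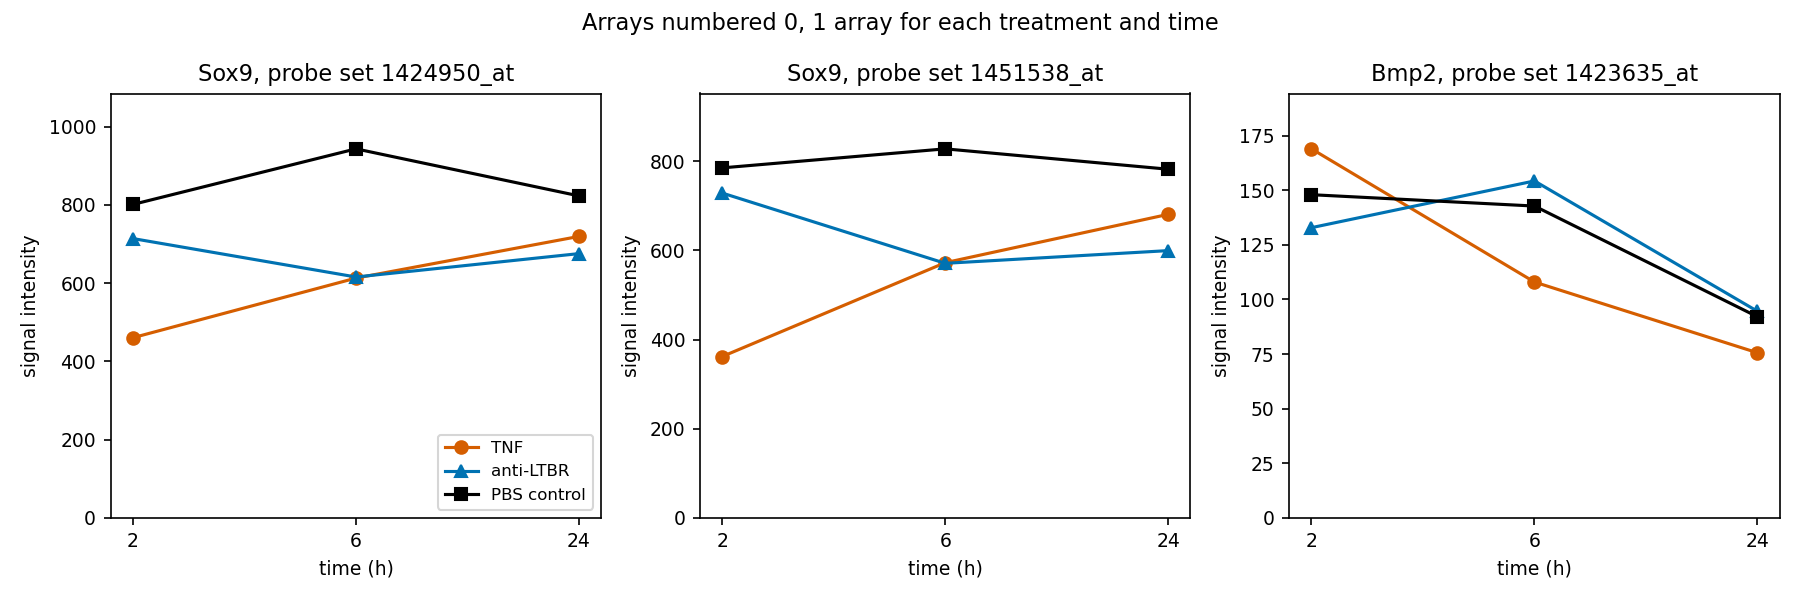
Signal intensity of the 2 Sox9 probe sets and of Bmp2 on the arrays numbered 0, with 1 array for each treatment at 2, 6 and 24 h (times drawn at equal steps). Sox9 with TNF is lowest at 2 h, at 460.6 and 362 on its probe sets, and Bmp2 is lower at 24 h than at 2 h on each of the 3 lines.

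Mgp, which encodes the mineralization inhibitor matrix Gla protein, was among the brightest features of these arrays. Its signals were 14575.4, 12484.7 and 14112.7 with TNF plus anti-LTBR, 16239.3, 16702.6, 12967.1 and 14723.8 with TNF, 15876.2, 16084.7, 13288.7 and 15098.5 with anti-LTBR, and 15722.8, 17542.9, 14546.5 and 15170.1 in PBS. The ranges overlapped, and the combination was below PBS in 3 of 3 pairs. The blocked change of -0.18 ± 0.04 (adjusted p = 0.0053) amounted to 1.13-fold, whereas without the block it was -0.20 ± 0.10 (adjusted p = 0.478). On the numbers 1 to 3 alone it was -0.20 ± 0.04 (adjusted p = 0.00427), and it was called in 15 of 15 fits that left out 1 array each (adjusted p up to 0.045). Scaling the arrays to equal medians with the block ended the call (-0.16, adjusted p = 0.138), and quantile normalization with the block gave -0.11 (adjusted p = 0.024). Changes with TNF (-0.06 ± 0.04, 95% interval -0.13 to 0.02) and with anti-LTBR (-0.06 ± 0.04, -0.14 to 0.01) were not called. At 2 h and 6 h Mgp stood at 14330.6 and 14218.6 with TNF, 14529.1 and 15426.5 with anti-LTBR and 15509.4 and 15840.2 in PBS. The highest signal of each 24 h array was 1.33 to 1.64 times that of Mgp, so Mgp lay near the top of the scale.

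Alpl, the alkaline phosphatase gene used as an early osteoblast marker, stayed close to the array median. At 24 h its signals were 136.3, 157.5 and 163.2 with TNF plus anti-LTBR, 156.7, 132.7, 150.4 and 149.3 with TNF, 141.4, 124.3, 149.3 and 126.1 with anti-LTBR, and 177.9, 144.3, 152.7 and 154 in PBS. All groups overlapped, although TNF and anti-LTBR were each below PBS in 4 of 4 pairs. With the block the changes were -0.01 (95% interval -0.28 to 0.27) for the combination, -0.09 (-0.33 to 0.16) for TNF and -0.20 (-0.45 to 0.04) for anti-LTBR, none of them called. The 2 h and 6 h arrays ranged from 154.7 to 187.2, highest with TNF at 2 h.

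Bmp2, the ligand upstream of Msx2 and Runx2 in osteogenic signalling, was dim. At 24 h its signals were 65.6, 69.6 and 47.6 with TNF plus anti-LTBR, 75.6, 52.4, 33.1 and 45.1 with TNF, 94.6, 29.5, 100.2 and 50.4 with anti-LTBR, and 92.1, 46.6, 55.4 and 46 in PBS. None of these 15 values was above its array median, and the groups overlapped, so Bmp2 was not among the genes tested. At 2 h, 6 h and 24 h on the arrays numbered 0 it had 169, 108 and 75.6 with TNF, 132.9, 154.3 and 94.6 with anti-LTBR, and 148, 142.8 and 92.1 in PBS. The 24 h value was the lowest of the 3 times in each treatment, PBS included, and 5 of the 6 earlier arrays were above their own median, the exception being TNF at 6 h.

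Msx2, a homeobox transcription factor gene induced by BMP signalling, gave no call. On the brighter of its 2 probe sets the signals were 225, 257.8 and 192 with TNF plus anti-LTBR, 142.4, 194.2, 271.1 and 184.6 with TNF, 177.5, 293, 311.3 and 181.1 with anti-LTBR, and 222.5, 223.9, 302.2 and 161 in PBS. Array 2 was the highest of each group, and the groups overlapped. With the block the changes were -0.08 (95% interval -0.40 to 0.24) for the combination, -0.19 (-0.48 to 0.10) for TNF and 0.07 (-0.22 to 0.35) for anti-LTBR. The dimmer probe set was above the array median on 4 of 15 arrays, at 60.2 to 159, and its blocked changes of -0.33, -0.22 and -0.13 were not called. The log2 signals of the 2 probe sets correlated at 0.45 over the 15 arrays, with the number means left in. At 2 h and 6 h the first was at 154.2 and 167.2 with TNF, 148.7 and 168.8 with anti-LTBR and 141.1 and 182 in PBS.

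**Figure D3:**
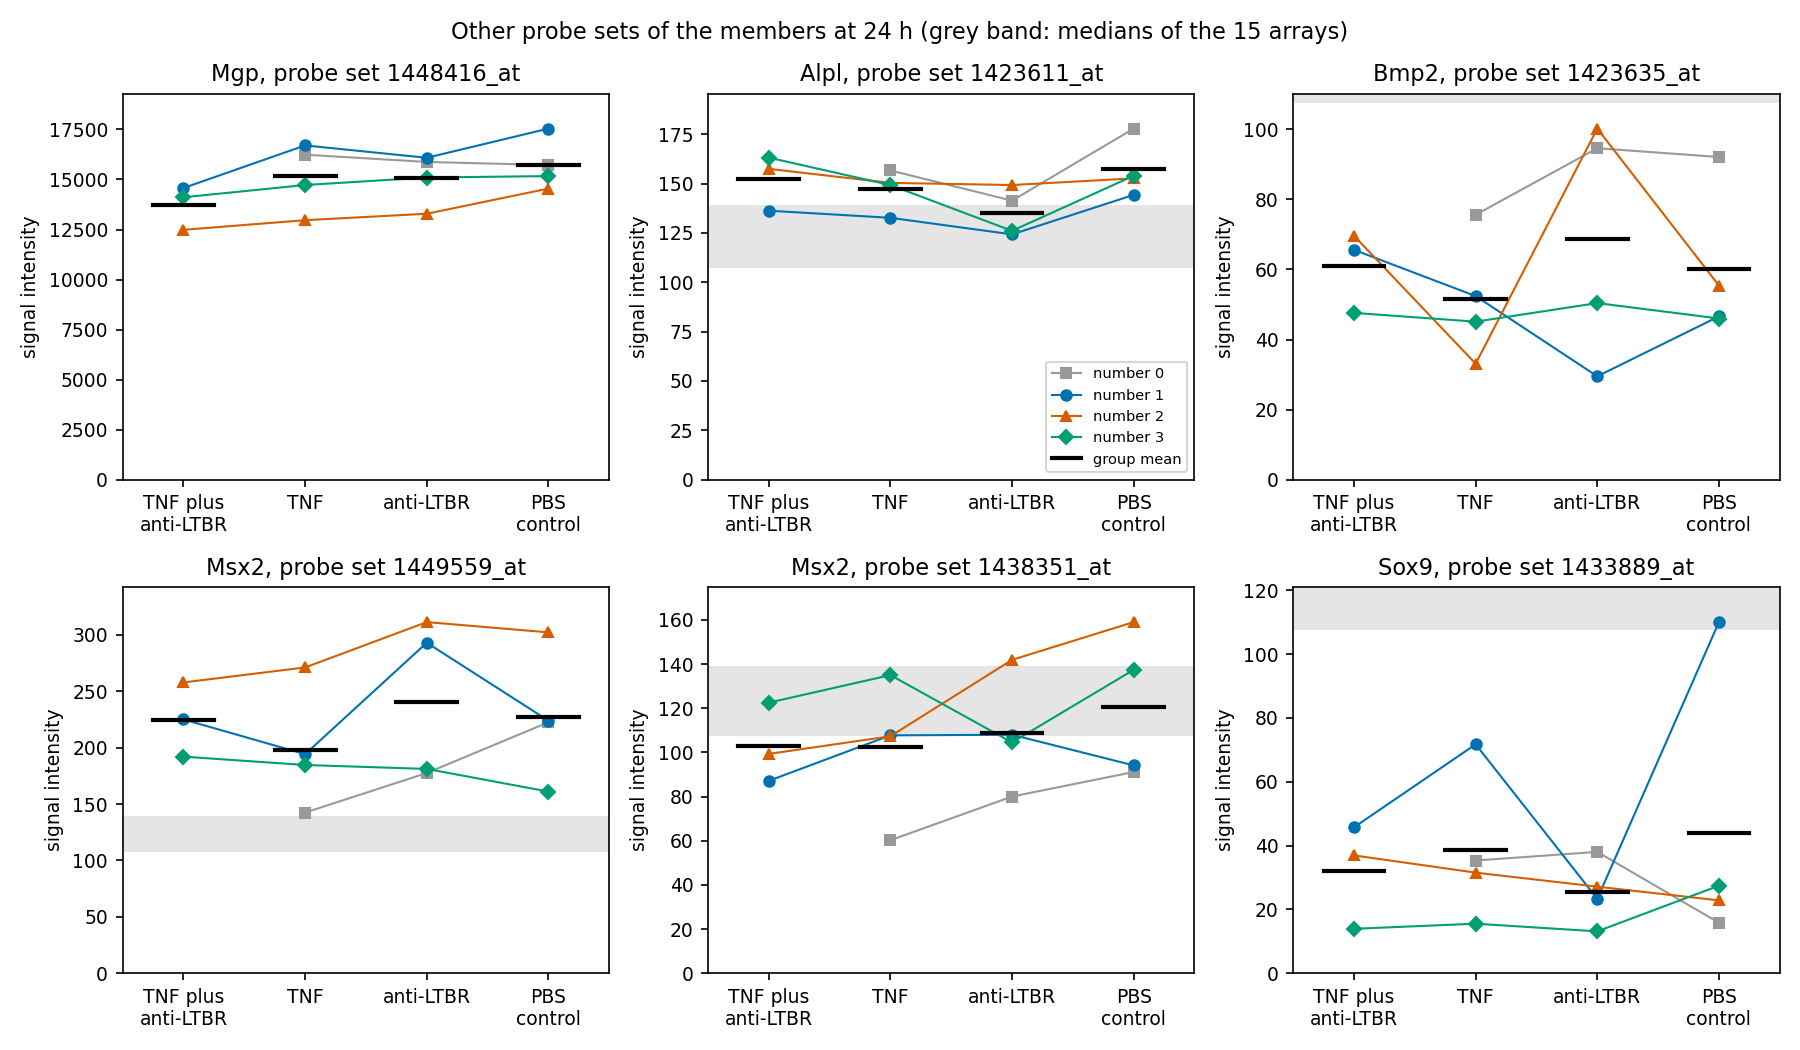
Signal intensity at 24 h of Mgp, Alpl, Bmp2, the 2 probe sets of Msx2 and the dim Sox9 probe set, with arrays of the same replicate number joined and group means as black bars. The grey bands span the medians of the 15 arrays. Mgp with TNF plus anti-LTBR lies below PBS within each number, while Bmp2 and the dim Sox9 probe set stay below their array medians.

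The replicate number accounted for much of the variation of these genes. It was entered before the treatment group, and the combination lacks the number 0, so variation shared by both is credited to the number. Of the sum of squares over the 24 h arrays it held 72.7 percent for Mgp, 63.5 and 58.2 percent for the 2 brighter Sox9 probe sets, 71.7 and 63.2 percent for Msx2, 46.8 percent for Bmp2 and 41.4 percent for Alpl, beside a median of 56.8 percent over all genes tested. With the number means taken out, Mgp and Sox9 varied together over the 15 arrays (Pearson r = 0.70), which includes the groups in which both are low, while the other pairs of members lay between -0.11 and 0.29. The genes most like Sox9 were Mospd2 and 2310039H08Rik (r = 0.95 each), and those most like Mgp were Nedd4, a ubiquitin ligase gene, and Thbs1, the thrombospondin gene (r = 0.96 each). Alpl was most like Hdgfl1 and Tuba8 (r = 0.93 and 0.92), and Msx2 most like Gdap1 and 3110082I17Rik (r = 0.86 and 0.83). These correlations describe arrays that fall into the same treatment groups. With the block Nedd4 changed by -0.19 in the combination, Thbs1 by -0.25, Mospd2 by -0.22 and 2310039H08Rik by -0.34. Such genes were picked for their likeness to Mgp or Sox9 on these same arrays, where both members fell. Their falls follow from that choice and are no separate evidence.

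Around Bmp2, the BMP ligands and antagonists had 12 genes tested of 17 listed. With the block 4 of them fell with the combination and 0 rose (median -0.22, beside 0.00044 over all genes), and 0 were called without the block. The same fit called 2422 of the 12446 genes, 1132 higher and 1290 lower, and this share of 19.5 percent is the background for the counts of every list in the combination. All lists were chosen with earlier results of these data known. Their counts therefore describe the lists and are no unbiased test against that share. Bambi, a pseudoreceptor that dampens BMP and TGF-beta signals, had signals of 339.5, 277 and 372.5 with TNF plus anti-LTBR, against 459.8, 657.4, 660.7 and 711 in PBS. These groups did not overlap, and the blocked change was -1.05 ± 0.09 (adjusted p = 2.73e-06). Bmp4, a ligand closely related to Bmp2, had 7402.8, 6307.2 and 6326.7 with the combination and 8658.9 to 10572.4 in PBS, also without overlap (-0.38 ± 0.06, adjusted p = 0.000251). The antagonist genes Chrdl1 and Fst changed by -0.70 and -0.24 (adjusted p = 0.000363 and 0.0219), and the Fst call was lost without PBS array 1 or 2 or combination array 1 or 2 and with equal medians. The other passing Fst probe set, at -0.23, was not called (adjusted p = 0.0776). Other Chrdl1 probe sets were called at -0.58 and -1.18 and not called at -0.77 (adjusted p = 0.0887). With the block and 1 agonist alone, Bambi (-0.35) and Fst (-0.23) were called lower with anti-LTBR and Fstl1 (0.13) higher with TNF. These 3 calls were lost with equal medians (adjusted p = 0.0897, 0.29 and 0.16) and on the numbers 1 to 3 (adjusted p = 0.164, 0.179 and 0.0555), and in 6, 9 and 5 of 15 fits that left out 1 array.

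Of 14 BMP receptor and Smad genes tested, 3 fell and 2 rose with the combination and the block (median -0.05), beside 19.5 percent of all genes called, and 0 were called without the block. Smad6, an inhibitory Smad that is itself a BMP target, had 2278.4, 2550.7 and 1931.9 with TNF plus anti-LTBR, against 4359.7, 2928.9, 4048.8 and 2903.7 in PBS, with no overlap (-0.53 ± 0.06, adjusted p = 2.94e-05). The receptor genes Acvr1 (-0.29, adjusted p = 0.000921) and Bmpr2 (-0.23, adjusted p = 0.0023) fell on their brightest probe sets, but their other passing probe sets were not called, at -0.09 and 0.22 for Acvr1 and -0.08 and -0.58 for Bmpr2. The 2 genes that rose were Smurf1, a ubiquitin ligase gene that targets Smads (0.44, adjusted p = 0.0253, lost without PBS array 1 or 3 or combination array 1 or 3), and Smad5 (0.32, adjusted p = 0.0375), whose call was lost in 6 of 15 fits that left out 1 array, with equal medians, with quantile normalization and on the numbers 1 to 3. On the numbers 1 to 3 the split was 3 lower and 1 higher. With TNF alone Acvr1 was called (-0.18, adjusted p = 0.0305), a call that was lost with equal medians (adjusted p = 0.392) and without PBS or TNF array 1, 2 or 3, and with anti-LTBR 0 of 14 were called.

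Among the osteoblast and chondrocyte transcription factors 6 of 14 fell and 1 rose with the combination and the block (median -0.17). Atf4, a stress-responsive factor needed by osteoblasts, was called without the block as well. Its signals of 4633.4, 4236.1 and 4144.3 with TNF plus anti-LTBR lay below those of 5946.1, 6636.4, 5846.4 and 6138 in PBS (-0.50 without the block, adjusted p = 0.00454, and -0.51 ± 0.04 with it, adjusted p = 2.89e-06). Mef2c, a factor of muscle and of hypertrophic chondrocytes, fell by 0.82 (adjusted p = 5.31e-06), and Dlx5, a BMP-induced homeobox factor, by 0.77 (adjusted p = 4.53e-05). Hey1, a Notch target, had 60.8, 31.6 and 40.1 in the combination, against 636.8, 268.5, 109.5 and 115.7 in PBS, and was called lower (adjusted p = 0.000224). All 3 combination arrays and PBS arrays 2 and 3 were under their own medians, and the size of the Hey1 change depended on the offset added before the log, at -1.74 with an offset of 1, -1.56 with that used here and -1.09 with an offset of 50. Sox6, a partner of SOX9 in cartilage, changed by -0.59 (adjusted p = 0.000389) and Zfp521 by -0.56 (adjusted p = 0.000235), while Twist1 rose by 0.29 (adjusted p = 0.048). The Twist1 call was lost in 11 of 15 fits that left out 1 array, with equal medians, with quantile normalization and on the numbers 1 to 3. Dlx5, Atf4 and Mef2c were called with each agonist alone too (-0.32, -0.21 and -0.48 with TNF, -0.43, -0.21 and -0.28 with anti-LTBR), as were Sox6 with anti-LTBR (-0.32) and Runx1 with TNF (0.52). With TNF, only Mef2c of these kept its call with equal medians (adjusted p = 0.00662), on the numbers 1 to 3 (adjusted p = 0.0046) and without each array in turn. Atf4 lost its call with equal medians for both agonists (adjusted p = 0.257 with TNF and 0.34 with anti-LTBR). Dlx5 with TNF lost it under both settings and in 13 of 15 fits that left out 1 array, and Runx1 on the numbers 1 to 3 (adjusted p = 0.0521) and in 8 of 15. With anti-LTBR, 1 of the 4 calls was left with equal medians (Dlx5) and 1 on the numbers 1 to 3 (Atf4).

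The bone and cartilage matrix genes include known targets of SOX9, and 5 of 12 tested fell and 0 rose with the combination and the block (median -0.20), with 0 called without it. Acan, the aggrecan gene of cartilage, had 1158.2, 727.1 and 790 with TNF plus anti-LTBR, 1060.9, 2377.9, 813.8 and 1227.4 with TNF, 1093.3, 3087.9, 1043 and 1607.3 with anti-LTBR, and 2319.1, 5352.9, 2156.4 and 2456.2 in PBS. The combination arrays were all below the PBS arrays, and each agonist alone was below PBS in 4 of 4 pairs. The blocked changes were -1.81 ± 0.13 (adjusted p = 9.4e-07) for the combination, -1.17 ± 0.12 (adjusted p = 7.39e-05) for TNF and -0.88 ± 0.12 (adjusted p = 0.000918) for anti-LTBR, and the combination was below TNF by -0.64 (adjusted p = 0.0119) and below anti-LTBR by -0.93 (adjusted p = 0.00115). Without the block the combination change was -1.69 (adjusted p = 0.0517). Col2a1, the type II collagen gene, was at 15634.6, 10336.1 and 14708.6 with the combination and 11917, 20019.7, 13806.9 and 15641.2 in PBS, overlapping ranges with a blocked change of -0.30 (adjusted p = 0.00218). Col10a1, the collagen gene of hypertrophic cartilage, was called lower (adjusted p = 0.00322) with a mean of 92.2 in the combination, where 1 of 3 arrays was above its median, and 249 in PBS, where 4 of 4 were. Its change was -1.24, and -1.34 or -0.95 with an offset of 1 or 50. Omd, the osteomodulin gene, changed by -0.63 (adjusted p = 6.33e-06) and Comp by -0.43 (adjusted p = 0.00643). Acan, Col2a1 and Comp are also among the chondrocyte markers above.

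Of the 13 Wnt pathway genes of bone, 6 fell and 0 rose with the combination and the block (median -0.43), and 0 were called without it. Sost, the Wnt inhibitor gene of osteocytes, changed most (-2.52 ± 0.21, adjusted p = 2.42e-06), although its level depended strongly on the number. It was 124.2, 464.1 and 1146.9 with TNF plus anti-LTBR on the arrays numbered 1 to 3, against 643.4, 4434.2 and 5154.8 on the PBS arrays of those numbers and 425.4 on PBS array 0. It was called with each agonist alone as well (-0.92 with TNF, adjusted p = 0.0122, and -0.89 with anti-LTBR, adjusted p = 0.0177). On the numbers 1 to 3 the call with anti-LTBR was lost (adjusted p = 0.0725), as it was without PBS array 1 or 2 or anti-LTBR array 0 or 1, and the call with TNF was lost without TNF array 2 (adjusted p = 0.0518). The secreted Wnt regulator genes Wif1 and Dkk3 changed by -0.82 and -0.46 (adjusted p = 0.000454 and 0.000311) and the co-receptor gene Lrp6 by -0.47 (adjusted p = 0.00715), with other Dkk3 and Lrp6 probe sets at -0.31 and -0.54 that were not called. Kremen1 (-0.43, adjusted p = 0.00812) and Wnt5a (-0.44, adjusted p = 0.00826) completed the 6. Leaving out combination array 1 ended the Kremen1 call (adjusted p = 0.0532), and leaving out combination array 2 ended the Wnt5a call (adjusted p = 0.0541).

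Of 7 phosphate and pyrophosphate genes tested, 0 were called without the block and 2 were lower with the combination and the block, beside 19.5 percent of all genes called, the ectonucleotidase genes Entpd1 (-0.39, adjusted p = 0.0102) and Nt5e (-0.39, adjusted p = 0.0404). The Entpd1 call was lost without combination array 1 or 2, and the Nt5e call was lost in 7 of 15 fits that left out 1 array and with equal medians. The other passing Nt5e probe set, at -0.25, was not called (adjusted p = 0.268). Of the other Entpd1 probe sets, that at -0.37 was called (adjusted p = 0.0426) and that at -0.35 was not (adjusted p = 0.469). The phosphate transporter gene Slc20a1 was higher in the combination than with TNF (0.43, adjusted p = 0.0374) but was not called against PBS (0.32, adjusted p = 0.067). Of 5 calcification inhibitor and vitamin K cycle genes, 0 were called without the block and 1 with it, a share like that of all genes. The 1 was Vkorc1, which encodes the vitamin K epoxide reductase (-0.13, adjusted p = 0.0349), and that call was lost in 7 of 15 fits that left out 1 array, on the numbers 1 to 3, with equal medians and with quantile normalization.

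Of 12 genes for osteopontin receptors and processing, 3 rose and 4 fell with the combination and the block (median -0.04). Cd44, a receptor for hyaluronan and osteopontin, was called without the block too. Its signals of 8790.4, 6866.1 and 7063 with TNF plus anti-LTBR lay above those of 3683.8, 5491.4, 3411.3 and 3885.1 in PBS (0.89 without the block, adjusted p = 0.0275, and 0.85 ± 0.07 with it, adjusted p = 1.62e-06). It rose with TNF (0.38, adjusted p = 0.0024) and with anti-LTBR (0.44, adjusted p = 0.00114) with the block, and by 0.47 and 0.42 in the combination over each agonist. Its 2 other passing probe sets changed by 0.93 and 1.14. The integrin subunit genes Itga8, Itga9 and Itgb5 changed by -0.40, -0.72 and -0.22 (adjusted p = 8.84e-06, 0.00241 and 0.00127), Itgb5 being lost with equal medians, and Itgb3 by -0.39 (adjusted p = 0.0192), lost without PBS array 1 or 2 or combination array 3. The other passing Itga9 probe set, at -0.29, was not called (adjusted p = 0.334). Itga8 was also called with TNF (-0.23) and with anti-LTBR (-0.21), and both calls were lost with equal medians (adjusted p = 0.0992 and 0.249). The protease genes Mmp9 and Mmp3 were called higher (adjusted p = 0.0122 and 0.034), with means of 185 and 122 in the combination and 73.8 and 74.55 in PBS. In PBS 0 of 4 arrays were above their own median for either gene, and the size of the change depended on the offset, at 1.71 and 0.83 with an offset of 1, 1.53 and 0.76 with that used here and 1.08 and 0.55 with an offset of 50. The Mmp9 call was lost without PBS array 1 or combination array 1, and the Mmp3 call in 6 of 15 such fits and on the numbers 1 to 3.

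**Figure D4:**
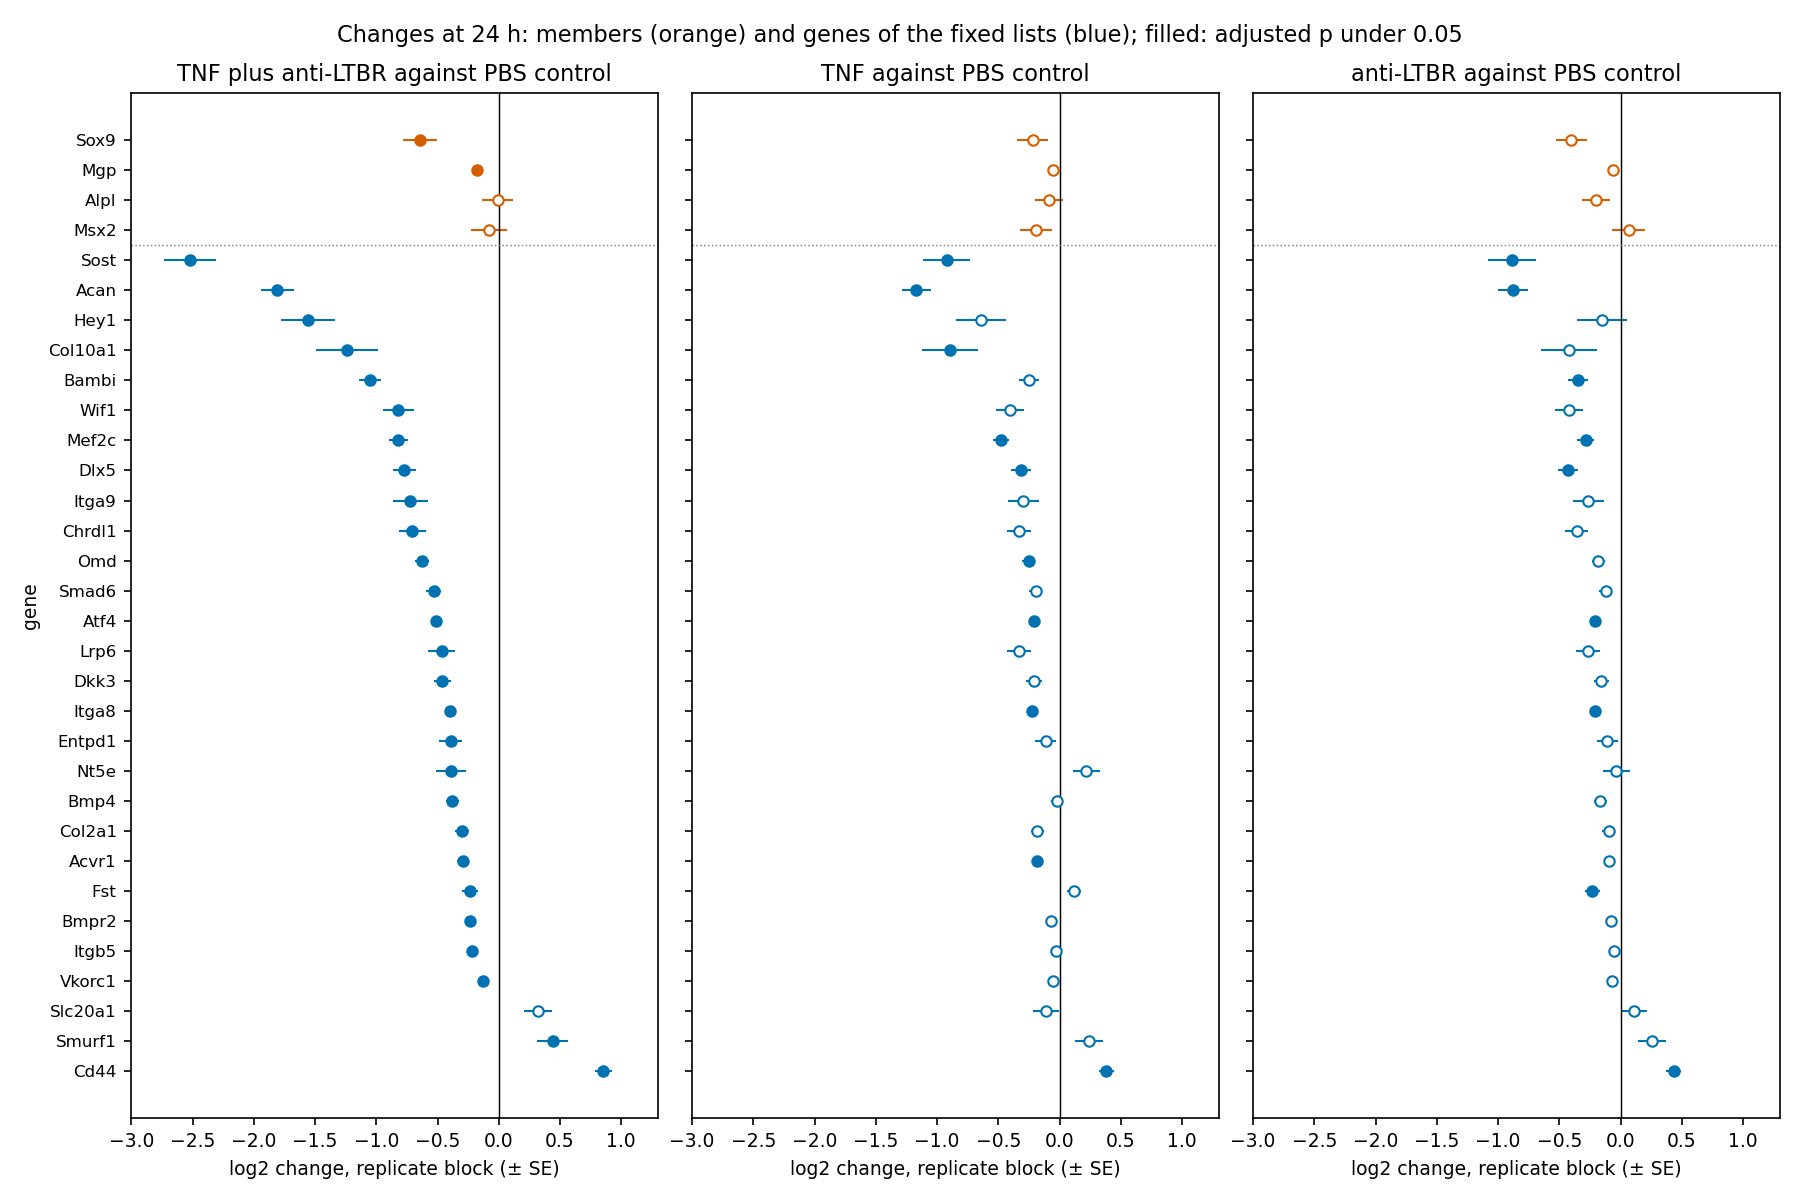
Log2 changes at 24 h with the replicate block, with 1 SE to each side, each treatment against PBS in its own panel. Shown are the 4 members tested (orange) and the named genes of the gene lists (blue), which were chosen with earlier results known. Filled points have an adjusted p under 0.05. Sox9 (-0.64) and Mgp (-0.18) are filled for the combination, and Sost (-2.52) lies farthest left.

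**Figure D5:**
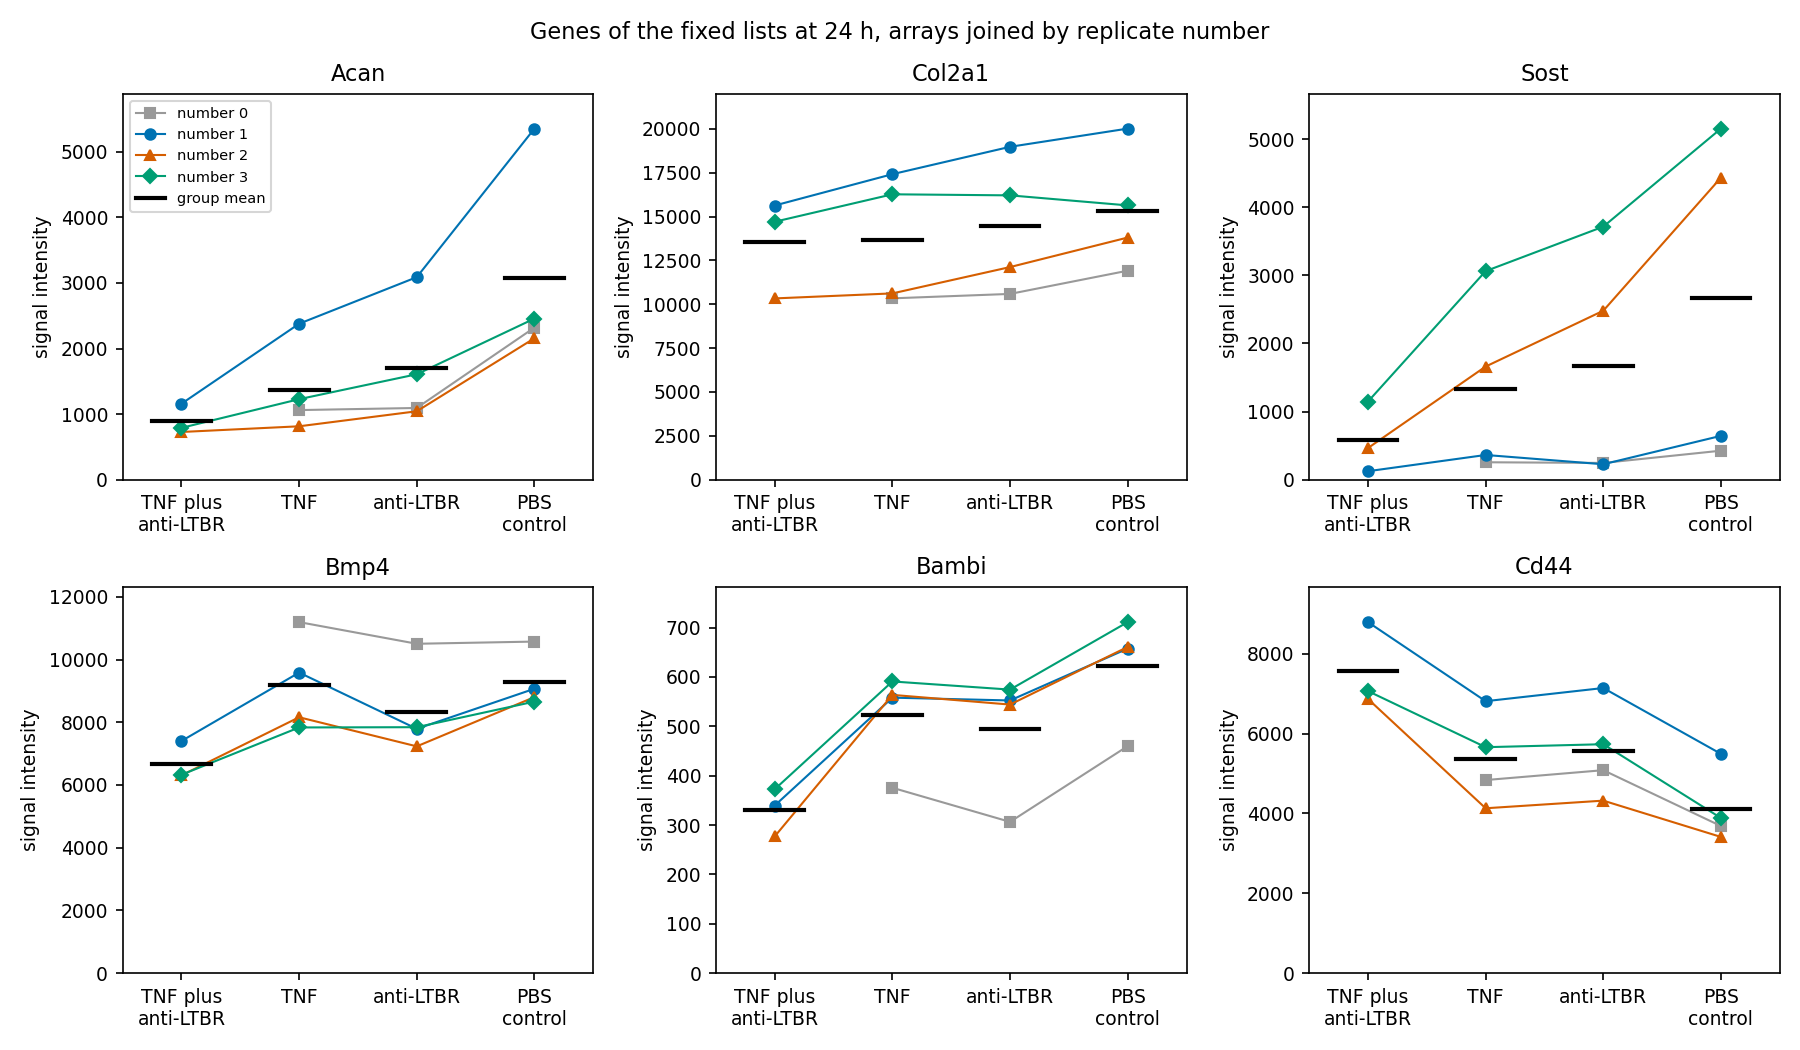
Signal intensity at 24 h of 6 genes of the gene lists, with arrays of the same replicate number joined and group means as black bars. For Acan, Bmp4 and Bambi the combination arrays lie below all PBS arrays, and for Cd44 above them. Sost in PBS is at 4434.2 and 5154.8 on the arrays numbered 2 and 3 and at 425.4 and 643.4 on those numbered 0 and 1.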

How the data were processed

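The deposited values are signal intensities per probe set from GCOS 1.4, per the submitters' processing notes. How signals were summarized and background-corrected, and any detection calls, are not stated in the labels used here. Each array has the same mean, 500.0, after 2 percent of the probe sets are trimmed at each end, and signals were used without further scaling. Of the probe sets, 34945 carry 1 gene symbol in the platform annotation, 932 several and 9160 none listed, and 64 control probe sets were left out.

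An offset of 10.2, the 10th percentile of the 24 h signals, was added before taking log2. Probe sets that exceeded the array median on 3 or more of the 15 arrays taken at 24 h were kept (25110), and the brightest stood for each of 12446 genes. The 15 arrays were fitted in limma 3.58.1 (R 4.3.3) with a trend in the variance, which leaves 11 degrees of freedom, or 8 once the block is added. Calls are at an adjusted p under 0.05, and levels are given per probe set and not compared between genes. The fit was also run on simulated arrays with normal noise and known changes, to see whether it returned their size. Those changes were larger than the Sox9 and Mgp changes called here, so changes of that smaller size were not tried.

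Groups and replicate numbers come from the labels. Nothing there ties a number to a separate culture or animal, so a p-value reflects the spread between these arrays alone, which may be technical. The numbers were checked for pairing: with group means removed, 21 same-number pairs of arrays correlated at 0.46 to 0.81 (median 0.63) and 63 other pairs at -0.58 to 0.21, and for 15 of 15 arrays the best correlation was within the number. The numbers thus pair the arrays, and blocked values stand beside results whose call they change. The combination lacks number 0, so the block compares it with PBS mainly through the numbers 1 to 3.

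The members and the lists were chosen with earlier results of these data known. Named genes are all members, the 2 genes most correlated with each tested member and, for each list, up to 4 called genes with the smallest blocked adjusted p in the combination. Other called list genes were named after their values were seen. The alternatives were the block, the numbers 1 to 3 alone, equal medians, quantile normalization, offsets of 1 and 50, other filters, no variance trend, other uses of the probe sets, and leaving out each array. The number of arrays limits the precision.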

Additional observations from a re-analysis of the deposited data

Results flagged for a closer look

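In 24 groups of 4 arrays of the members' probe sets, 1 held an array far from the others, where chance gives about 1 in 20 groups. The dim Sox9 probe set had 110 on PBS array 1 at 24 h, against 15.8 to 27.4 on the other 3 PBS arrays. The same array had the highest signal of the PBS group on both brighter Sox9 probe sets (1800.9 and 1823.1) and on Mgp (17542.9).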

How the results depend on the processing

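With the replicate block, which pairs the arrays, 2 of the 4 members were called for TNF plus anti-LTBR against PBS (0 without it), and the block changed no other count of members called. Combined with the block, 2 were called on the numbers 1 to 3, after quantile normalization and with the mean of a gene's probe sets, and 1 after scaling to equal medians, where Mgp was lost (adjusted p = 0.138). The mean of the probe sets with the block also called 1 member, Sox9, for anti-LTBR against PBS (-0.42, adjusted p = 0.0371) and 1, Sox9, for the combination against TNF (-0.49, adjusted p = 0.024). Several of these blocked settings, and the offsets of 1 and 50 with the block, were chosen after seeing the data. Without the block, no setting called a member: the counts were 0 with every array left out in turn (lowest and highest 0) and at every other setting tried. With the block, leaving out 1 array called Sox9 for anti-LTBR against PBS in 2 of 15 fits (adjusted p down to 0.0242), and leaving out combination array 3 called it against TNF (adjusted p = 0.00728) and against anti-LTBR (adjusted p = 0.0425). Of 532 values of single members at other settings, 472 kept direction and call, 13 passed the threshold only there, 47 turned sign without a call in either setting, and 0 called values turned sign. Equal medians moved the median of all genes by 0.08 for anti-LTBR against PBS and by -0.11 for the interaction. Of the transcription factors lower with the block, equal medians and the numbers 1 to 3 each left 1 of 4 with anti-LTBR, and 1 and 2 of 3 with TNF. Of the matrix genes lower with TNF, they left 2 and 1 of 3. Omd (adjusted p = 0.114 and 0.085) and Col10a1 (adjusted p = 0.0411 and 0.109) were those concerned. The causes of these differences were not tested. Signals near or under the array median (Alpl, Bmp2 and the second Msx2 probe set) and the near-top signal of Mgp limit what a change could show.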
